A study of Sus scrofa with 2 samples.

Results

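A small set of CpG cytosines in the pig genome collected far more sequencing reads than the rest. They were chosen by depth alone, as cytosines outside the mitochondrial genome and chromosome X that were listed in both methylation files with more than 200 reads in each. Of 6635816 cytosines listed in both libraries outside those sequences, 2652 met this rule, which is 0.0400%. They lay in 2069 CpGs, with 1173 cytosines on the plus and 1479 on the minus strand. Joined wherever neighbours were at most 10 kb apart, they formed 69 clusters on 16 autosomes and 1 unplaced scaffold, and the other 2 autosomes, 5 and 13, had none.

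Mammalian genomes carry long runs of tandem repeats, called satellites, and families of repeated units near centromeres and chromosome ends. An assembly often holds fewer copies of such a repeat than the animal does, so that reads from many copies pile up on the few that the assembly shows. In most somatic cells DNA methylation covers such repeats, and DNMT1, which copies the mark onto the new strand after replication, keeps it up together with the de novo enzymes DNMT3A and DNMT3B. A level measured at such a position is a mean over all copies and all cells whose reads landed there.

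Longissimus dorsi muscle, which runs along the back, gave the DNA of 2 Tibetan pigs, both female, for whole-genome bisulfite sequencing, in which unmethylated cytosine is read as thymine. The low-altitude pig lived on the Chengdu plain at an average of 500 m under experimental conditions with ordinary feed, and came from Tibetan pigs kept in the lowland for many generations. The high-altitude pig was a free-ranging animal of the Tibetan highland, at 4000 m on average. Both pigs share breed, sex and tissue, and with 1 pig a group altitude, feeding, housing, descent and the individual cannot be told apart. No age was given in the sources used here. The libraries listed 10104425 nuclear cytosines with 95363149 reads in the low-altitude pig and 10441737 with 99955761 reads in the high-altitude pig, at a median of 8 reads in each. Intervals below are 95% Wilson intervals of the reads, and each difference is the low-altitude level minus the high-altitude level, in percentage points. The intervals cover counting error only, since reads without molecular identifiers are not independent molecules.

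Depth, the measure that chose these cytosines, is given as a description. They held 1869687 reads in the low-altitude library and 2085332 in the high-altitude library, which was 2.06% and 2.20% of the reads at cytosines outside the mitochondrial genome and chromosome X. The median was 401 reads at low altitude and 380 at high altitude, and the deepest cytosine had 14030 and 17225 reads. A further 828 cytosines passed 200 reads in the low-altitude library alone and 805 in the high-altitude library alone. Of the 828, 811 were also listed in the high-altitude library, at a median of 155 reads there against 242 reads at low altitude. Of the 805, 789 were also listed in the low-altitude library, at a median of 159 reads against 243 reads at high altitude. Just inside the threshold, the minus-strand cytosine at position 64760 of chromosome 1 had 26.4% of 201 reads methylated at low altitude and 24.7% of 239 at high altitude. Those at 155232610 (minus strand) and 155368675 (plus strand) of chromosome 15 had 28.9% of 201 and 31.3% of 201 reads at low altitude, and 26.0% of 242 and 34.5% of 267 at high altitude. Just outside it, the minus-strand cytosine at 64846 of chromosome 1 had 72.5% of 200 reads at low altitude and 73.7% of 304 at high altitude. Those at 312935571 of chromosome 1 (plus strand) and 48928739 of chromosome 12 (minus strand) had 25.7% of 280 and 26.5% of 200 reads at low altitude, and 27.5% of 200 and 31.9% of 254 at high altitude.

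The deep cytosines were partly methylated in both pigs, well below the level of ordinary depth. Over all their reads 41.5% (41.4 to 41.6%) were methylated at low altitude and 41.8% (41.7 to 41.8%) at high altitude. The mean over cytosines was 41.6% ± 20.6 at low altitude and 41.7% ± 20.4 at high altitude (SD over the 2652 cytosines). Cytosines with 10 to 20 reads in each library, by comparison, averaged 72.6% at low altitude and 73.6% at high altitude, and those with 21 to 60 reads 67.3% and 68.2%. A step down lay between these classes and the next, because the 2124 cytosines with 61 to 100 reads averaged 36.8% at low altitude and 38.5% at high altitude, and the 2212 with over 100 and up to 200 reads 39.96% and 41.4%. Among the deep cytosines 83.1% had a level of 20 to 80% over the reads of both pigs, and 4.49% a level over 80%. Of cytosines with 10 to 20 reads, 53.6% had a level of 20 to 80% and 45.0% a level over 80%. At 61 to 100 reads these shares were 72.4% and 4.80%, and with over 100 and up to 200 reads 76.3% and 7.19%. Single reads weigh far more at 10 to 20 reads than at over 200, so the spread of levels in the less deep classes holds more counting error. Sites within a class share reads and repeats, so the classes were not tested against each other. By level, 1032 of the deep cytosines (38.9%) lay between 20 and 40%, 778 (29.3%) between 40 and 60%, and 394 (14.9%) between 60 and 80%. At the extremes 139 were under 10% and 27 at or over 90%. The files list cytosines with methylated calls, so fully unmethylated positions were not measured.

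Differences between the pigs went both ways and nearly cancelled in the mean. The mean difference per cytosine was −0.066 points ± 7.74 (SD over cytosines), the median was −1.41 points, and the level was lower at low altitude in 1564 cytosines and higher in 1088. The share lower, 59.0%, was near the 59.5% at 61 to 100 reads and the 60.9% with over 100 and up to 200 reads. Median differences in those classes were −1.74 and −1.90 points, so this lean does not set the deep cytosines apart. At 10 to 20 reads 49.9% were lower, and at 21 to 60 reads 52.4%. Across the 2652 cytosines the levels of both pigs had a Pearson correlation of 0.929, a description of sites that share libraries, reads and repeat families. The typical size of a difference was 4.59 points (median of absolute values), against a median counting error of 3.17 points (SE of the difference). In 1097 cytosines (41.4%) the difference exceeded its 95% counting range. That range narrows with depth, the measure that chose these cytosines, so the share moves with depth. It is not given for less deep cytosines, so it sets the deep ones apart from no others.

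Methylated and unmethylated reads were compared at each cytosine by a two-sided Fisher's exact test, with p adjusted by the Benjamini-Hochberg method over all 2231948 nuclear cytosines with at least 10 reads in each library. With 1 pig a group this test compares the reads of 2 libraries, not 2 altitudes. Where the adjusted p was below 0.05 and the levels were 25 or more points apart, 5 deep cytosines (0.189%) were called, 2 lower and 3 higher at low altitude, against a background of 0.215% over all tested cytosines. That share is near the background and is no result about deep cytosines. The background was 0.118% for lower and 0.0974% for higher levels at low altitude. At a difference of at least 10 points 236 (8.90%) were called, 51 lower and 185 higher, against backgrounds of 0.229% in all, 0.121% lower and 0.108% higher. With no minimum difference 342 (12.9%) were called, 147 lower and 195 higher, against 0.234%, 0.126% and 0.108%. These shares move with depth, since over 200 reads resolve differences that 10 reads cannot. Differences of at least 10 points of any p were less frequent among deep cytosines (18.6%) than at 10 to 20 reads (53.4%). They made up 24.0% at 61 to 100 reads and 20.2% with over 100 and up to 200 reads. Counting error is larger at fewer reads, so this fall does not show that deep cytosines truly differ less often.

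The small mean hid clusters that differed in opposite directions, as the plot of levels by cluster shows. Of the 69 clusters 51 had a lower level over reads at low altitude and 18 a higher one. With each cluster counted once the mean difference was −1.94 points ± 3.38 (SD over clusters), the median −2.08 and the range −9.98 to 8.48. The mean difference per cytosine was also negative at ordinary depth, −0.99 points at 10 to 20 reads and −0.94 at 21 to 60 reads. The 32 clusters with at least 10 deep cytosines held 2525 of them, and 23 of these clusters were lower and 9 higher at low altitude. The 6 clusters with the most deep cytosines held 1854 (69.9%). The cluster with the most, 534, lay near the start of chromosome 6 and had the largest positive difference. Without it the mean difference per cytosine was −2.38 points.

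**Figure D1:**
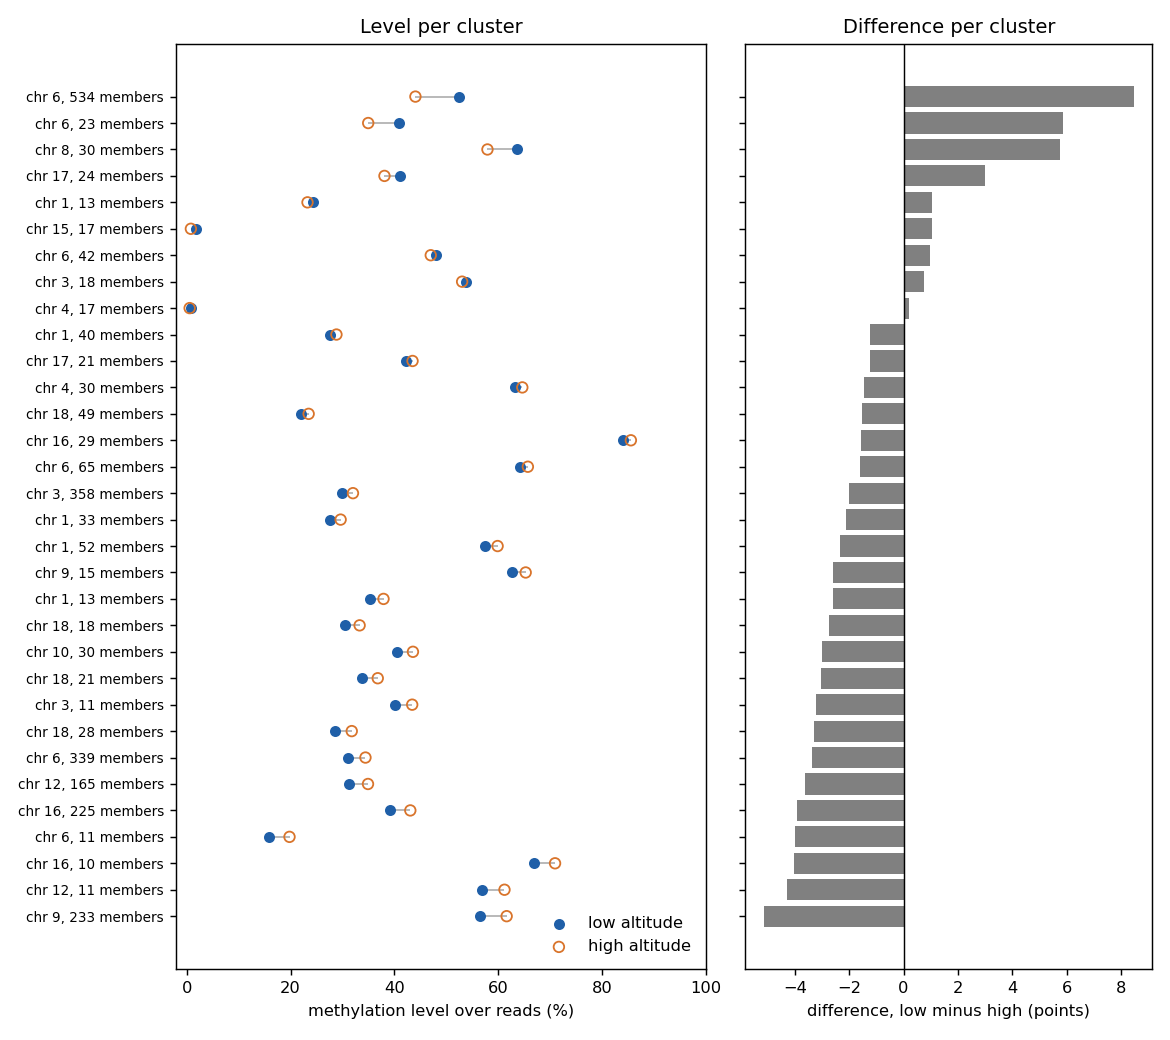
Methylation level over reads in percent (left, low altitude filled, high altitude open) and its difference in points, low minus high (right), in each of the 32 clusters with at least 10 deep cytosines, ordered by difference. Most levels lie between 20 and 70%, 9 clusters lie right of 0, and the chromosome 6 cluster of 534 cytosines stands at 8.48 points.

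The clusters differed in how regularly their CpGs were spaced. The distances between all listed CpGs inside a cluster were counted from 10 to 1500 bp, because copies of a tandem repeat put CpGs at distances that recur. The distance of 73 bp was among the 5 most frequent in 4 clusters with 1087 deep cytosines (41.0%), and 336 bp among the 2 most frequent in 2 clusters with 285 (10.7%). The cut-offs differ, and with the 5 most frequent distances another cluster would join the 336 bp family. It lies on chromosome 3 (22241280 to 22245478), with 6 pairs at 336 bp against a median of 1, and its 18 deep cytosines had 53.8% at low altitude and 53.0% at high altitude, with 13 higher. The label of satellite-like repeats thus has a recurring distance behind it in the 6 clusters kept here. The chromosome 16 cluster had the weakest one, with 73 bp at rank 5 and 19 pairs against a median of 3. The other 63, with 1280 deep cytosines, had neither distance by this rule or held too few CpGs to count. Some of them had frequent distances of their own, such as 578 bp with 9 pairs against a median of 1 on chromosome 6 (905676 to 910741). Over reads the level of these 63 clusters was 47.1% at low altitude and 40.9% at high altitude, with 530 cytosines lower and 750 higher. A chromosome 6 cluster of 534 alone held 445 of those 750, and without it the level was 42.7% at low altitude and 39.2% at high altitude, with 441 cytosines lower and 305 higher. The mean difference per cytosine was then −0.87 points ± 5.90, opposite in sign to the difference over reads, which sums clusters of unlike level and depth. By cluster, 45 of the 63 were lower and 18 higher at low altitude, and all 6 clusters of both families were lower. That holds only at these cut-offs, because the chromosome 3 cluster that the wider one would add was higher at low altitude, by 0.76 points. These families were set after the counts were seen, and no repeat annotation of the genome build of these files was used here.

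The 73 bp family lay on chromosomes 3, 6, 12 and 16. At exactly 73 bp there were 446 pairs of CpGs in the chromosome 3 cluster, against a median of 25 pairs over all distances. The cluster on chromosome 6 (143336913 to 143461942) had 723 pairs against 33, and that on chromosome 12 had 240 against 10. The chromosome 16 cluster, which is shorter, had 19 against 3, and there 44 bp was the most frequent distance with 31 pairs. Gaps of 17, 27 and 29 bp between neighbouring CpGs, which add up to 73 bp, recurred on chromosomes 3, 6 and 12. On chromosome 16 the gaps of 17 bp (14.9%) and 27 bp (11.7%) recurred, but only 2 of 154 gaps were of 29 bp, 1.3% against 0.960% over all listed CpGs. A gap of 44 bp, the sum of 17 and 27 bp, made up 4.54% of gaps on chromosome 3, 9.27% on chromosome 6, 8.51% on chromosome 12 and 5.84% on chromosome 16, against 0.698% over all listed CpGs. Gaps of 17, 27 and 29 bp together made up 38.3% of neighbour gaps of at most 200 bp on chromosome 3, 36.9% on chromosome 6, 36.5% on chromosome 12 and 27.9% on chromosome 16, against 3.45% over all listed CpGs. The clusters also shared longer patterns. Among 780 pairs of clusters, 9 had at least 2 runs of 3 successive gaps in common, and 6 of these 9 joined members of the 73 bp family. The chromosome 12 and chromosome 6 clusters shared the most runs, 19 in the same and 22 in the reverse order.

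**Figure D2:**
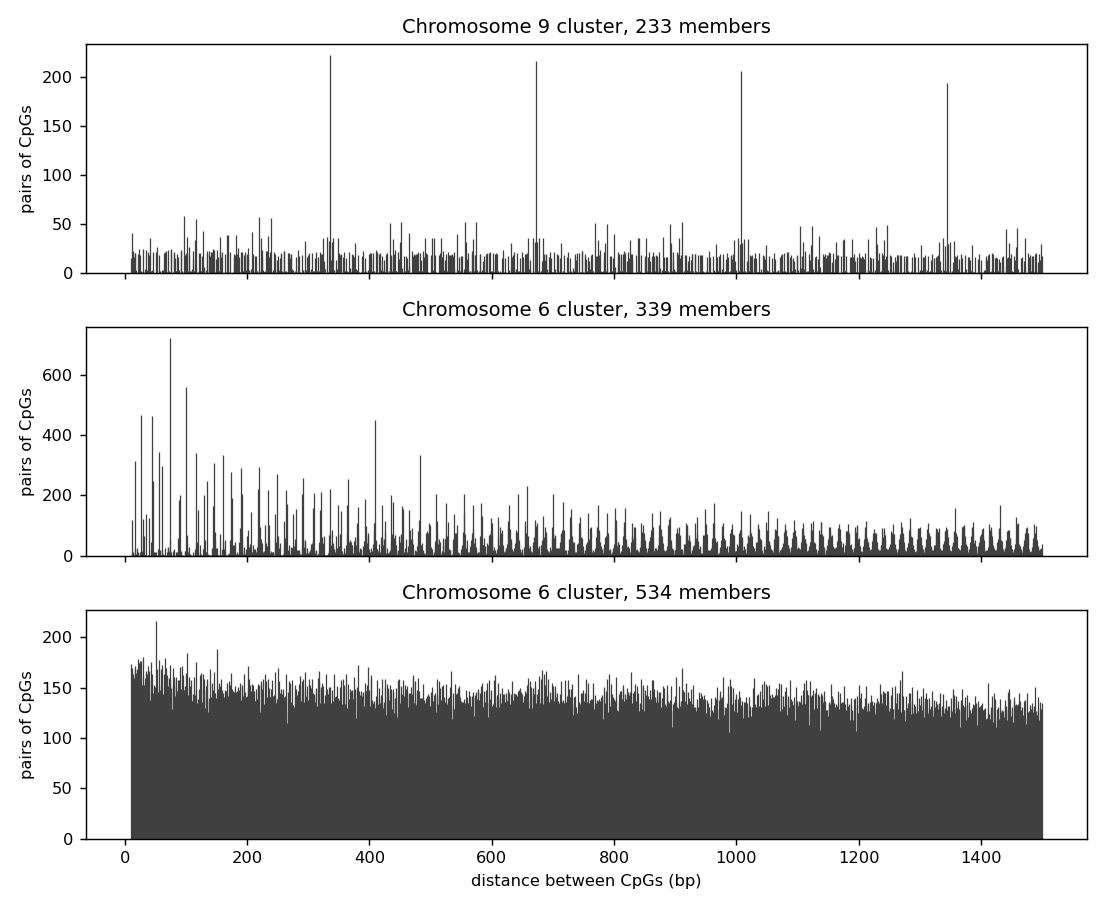
Number of pairs of listed CpGs at each distance from 10 to 1500 bp in the chromosome 9 cluster of 233 deep cytosines (top), the chromosome 6 cluster of 339 (middle) and the chromosome 6 cluster of 534 (bottom). The top panel has spikes at 336, 672, 1008 and 1344 bp, the middle one its highest spike at 73 bp, and the bottom one an even floor of about 138 pairs with no spike above 216.

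The 73 bp family was lowly methylated and lower at low altitude. Over reads its level was 36.1% (36.0 to 36.2%) at low altitude and 40.2% (40.2 to 40.3%) at high altitude. The mean difference per cytosine was −2.94 points ± 5.20, and 789 of 1087 cytosines were lower at low altitude. By Fisher's exact test at an adjusted p below 0.05, 117 were lower and 10 higher, against backgrounds of 0.126% and 0.108% of all tested cytosines. Of these, 76 lower and 3 higher ones were in the chromosome 16 cluster, which has the most reads, so the count moves with depth. That cluster also weighs most in the sum over reads. Without it the family had 30.7% at low altitude and 33.6% at high altitude, and the differences of the 4 clusters, −2.02 to −3.93 points, are all smaller in size than the −4.12 points of the sum. The chromosome 3 cluster (142457262 to 142550199, 358 deep cytosines, median 341 reads at low and 365 at high altitude) had 29.99% at low altitude and 32.0% at high altitude, and 233 cytosines were lower. The chromosome 6 cluster of this family (339 deep cytosines, 335 and 389 reads) had 31.0% at low altitude and 34.4% at high altitude, with 248 lower. The chromosome 12 cluster (48903613 to 48945560, 165 deep cytosines, 327 and 356 reads) had 31.3% at low altitude and 34.9% at high altitude, with 123 lower. Between the deep positions these 3 arrays held 2796, 3940 and 1308 further listed cytosines at medians of 33 to 45 reads, whose levels were within 2 points of those of the deep ones in either pig. Their differences, −1.40, −3.75 and −4.27 points, had the same direction as in the deep cytosines. The cytosines within 10 kb on either side were also lowly methylated, at 24.1 to 32.1% at low altitude and 27.9 to 34.1% at high altitude.

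The chromosome 16 cluster was the deepest of all 69. It spanned 36780942 to 36787419 and its 225 deep cytosines held 37.4% of all reads of deep cytosines at low altitude and 46.8% at high altitude. Of the 100 deepest cytosines 96 lay in it. The median was 1723 reads at low altitude and 2472 at high altitude. The ratio of its reads, low over high, was 0.736 times the same ratio over all shared nuclear cytosines, which is called the relative read ratio below. Unlike the arrays above it stood in highly methylated surroundings of ordinary depth, because 92 cytosines within 10 kb had medians of 8.5 and 10 reads and levels of 78.3% at low altitude and 78.5% at high altitude. Inside it 39.1% (39.0 to 39.2%) of reads were methylated at low altitude and 43.1% (43.0 to 43.2%) at high altitude, and 185 of 225 cytosines were lower. By Fisher's exact test at an adjusted p below 0.05, 76 were lower and 3 higher. The backgrounds were 0.126% lower and 0.108% higher over all tested cytosines, and such counts move with depth.

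The deepest single cytosine of all, at 36782167 on the plus strand, was methylated in 47.9% of 14030 reads at low altitude and 54.7% of 17225 reads at high altitude, which differ by −6.77 points (adjusted p = 3.58e-27 by Fisher's exact test). The next, at 36782211, had 30.5% of 12367 reads at low altitude and 34.4% of 16549 at high altitude (Fisher's exact test, adjusted p = 7.14e-08). The third, at 36781597, had 22.2% of 11300 and 24.4% of 15753 reads (Fisher's exact test, adjusted p = 0.0204). All 3 were lower at low altitude, with differences of −2.21 to −6.77 points. The 89 cytosines with over 3000 reads in both libraries differed by −4.13 points ± 2.57, and 85 of them were lower. The 53 with 1001 to 3000 reads differed by −2.37 points ± 3.24 and the 83 with 201 to 1000 reads by −2.48 points ± 6.32.

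In the chromosome 16 and chromosome 6 clusters of the 73 bp family the order of 17 and 27 bp gaps around a CpG went with its level, though not in the same way. On chromosome 12 the levels hardly differed. Other gap patterns are not listed in full. On chromosome 3 they ran from 19.8% (119 bp before, 29 bp after) to 39.5% (27 and 73 bp) at low altitude, both on the minus strand. On chromosome 6, 39 bp before and 17 bp after gave 11.8% at low altitude and 6.4% at high altitude (plus strand, 6 copies). On chromosome 16, CpGs with 17 bp to the CpG before and 27 bp to the one after averaged 45.1% ± 2.7 at low altitude and 48.9% ± 3.5 at high altitude on the plus strand (SD over 6 copies). Those with 27 bp before and 17 bp after averaged 33.3% ± 5.9 and 37.7% ± 2.6 (8 copies). The minus strand gave 46.2% and 50.7% for the first kind and 35.5% and 38.2% for the second. On chromosome 6 the plus strand gave 39.1% ± 10.4 at low altitude and 40.2% ± 11.3 at high altitude for the first kind. The second kind had 26.4% ± 7.6 and 28.0% ± 7.1 there. The minus strand of chromosome 6 had the opposite order, with 25.1% ± 3.9 and 28.5% ± 4.6 for the first kind and 36.9% ± 5.8 and 37.7% ± 6.1 for the second. On chromosome 12 the minus strand gave 33.3% ± 7.5 and 33.5% ± 5.9 for the first kind and 36.7% ± 8.2 and 37.4% ± 7.2 for the second (8 copies each). In the chromosome 16 cluster a step at the first 100 bp was seen on the minus strand. There 6 cytosines averaged 26.2% at low altitude and 41.8% at high altitude, against 38.0% and 40.7% for the other 118 of that strand. On the plus strand the first 100 bp of the chromosome 16 cluster held 5 cytosines at 34.7% and 40.7%. This stretch was picked after its values were seen.

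**Figure D3:**
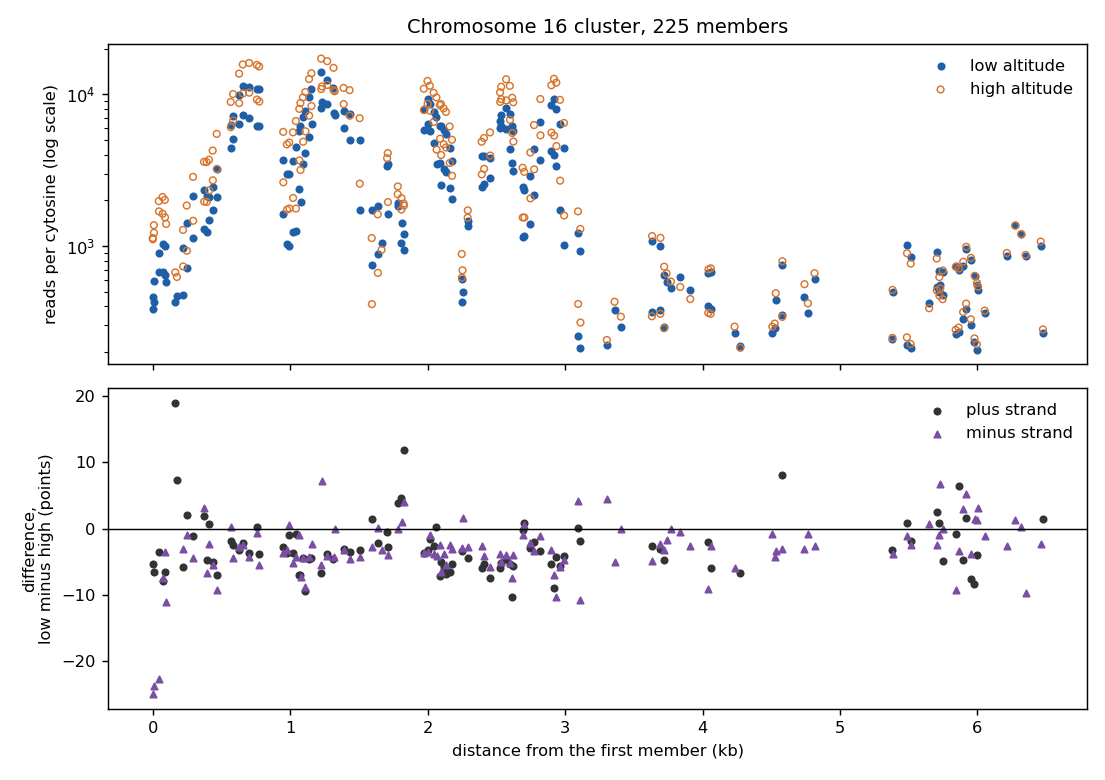
Reads per cytosine on a log scale (top, low altitude filled, high altitude open) and difference in level in points (bottom, plus strand circles, minus strand triangles) along the chromosome 16 cluster, by distance from its first deep cytosine in kb. Over the first 3 kb most cytosines have over 1000 reads, with more at high altitude, and most differences lie a few points below 0.

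The 336 bp family lay on chromosomes 9 and 1 and was more methylated. The chromosome 9 cluster (40847964 to 40855260, 233 deep cytosines, median 405 reads at low and 385 at high altitude) had 56.5% (56.2 to 56.8%) at low altitude and 61.6% (61.3 to 61.9%) at high altitude. Of its 233 cytosines 209 were lower, and its difference of −5.14 points was the most negative among clusters with at least 10 deep cytosines. By Fisher's exact test at an adjusted p below 0.05, 6 were lower and none higher. The backgrounds were 0.126% lower and 0.108% higher over all tested cytosines. At 336 bp this cluster had 223 pairs of CpGs against a median of 2 over all distances. At 672, 1008 and 1344 bp it had 217, 206 and 194. The chromosome 1 cluster (100578862 to 100580597, 52 deep cytosines, median 735.5 and 530 reads) had 11 pairs at 336 bp and 12 at 671 bp against a median of 1. Its level was 57.5% at low altitude and 59.9% at high altitude, and 36 of 52 cytosines were lower. Gap patterns of both clusters matched in reverse order, in 6 runs of 3 gaps.

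In the chromosome 9 array the place of a CpG within the 336 bp unit went with nearly all of its level. The array spanned 22 copies, and 217 of its 233 deep cytosines (93.1%) fell on 13 places seen on both strands, each in at least 5 copies. The means of these 26 combinations of place and strand ran between 20.7 and 83.7% at low altitude and between 23.6 and 84.3% at high altitude. Copies of 1 place varied by only 5.34 points at low altitude and 5.29 at high altitude (SD within places), against an SD of 18.5 and 17.3 over these 217 cytosines, so that place held 92.6% and 91.7% of their variance. The median counting error of a difference between pigs was 3.19 points in this array. Within the unit a group of 4 places close together, at 0, 5, 15 and 17 bp, was the most methylated. At 0 bp the plus strand averaged 80.5% ± 5.5 at low altitude and 83.5% ± 4.3 at high altitude (SD over 10 copies). The least methylated was the place at 225 bp, with 20.7% ± 1.3 and 23.6% ± 3.3 on the plus strand (6 copies). At 97 bp the strands differed, with 36.3% at low altitude and 43.6% at high altitude on the plus strand and 66.7% and 71.2% on the minus strand.

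All 26 means were lower at low altitude, with differences of −0.62 to −8.78 points, and in 15 combinations every copy was lower. The place at 81 bp showed the pattern, with 54.8% ± 3.0 at low altitude and 63.5% ± 3.9 at high altitude on the plus strand, lower in 9 of 9 copies. On the minus strand the same place had 51.1% ± 4.3 and 59.9% ± 6.0, lower in 6 of 6. At the 4 places of highest level the differences ran between −0.62 and −4.32 points. The smallest was at 17 bp on the plus strand, with 83.7% ± 4.8 at low altitude and 84.3% ± 2.6 at high altitude, whereas the minus strand there had 80.2% ± 2.9 and 84.2% ± 3.1, lower in 6 of 6 copies. Copies of a unit share 1 library in each pig and are not replicates of the altitudes. Matched by their gaps, 21 deep cytosines of the chromosome 1 cluster followed the place means of chromosome 9 with a Pearson correlation of 0.856 at low altitude and 0.881 at high altitude. These points share the libraries and the repeat family. A small cluster at 16885845 to 16886094 of chromosome 9, singled out after its gaps were seen, matched at 8 of its 15 deep cytosines, with correlations of 0.844 and 0.672. Its level was 62.7% at low altitude and 65.3% at high altitude.

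**Figure D4:**
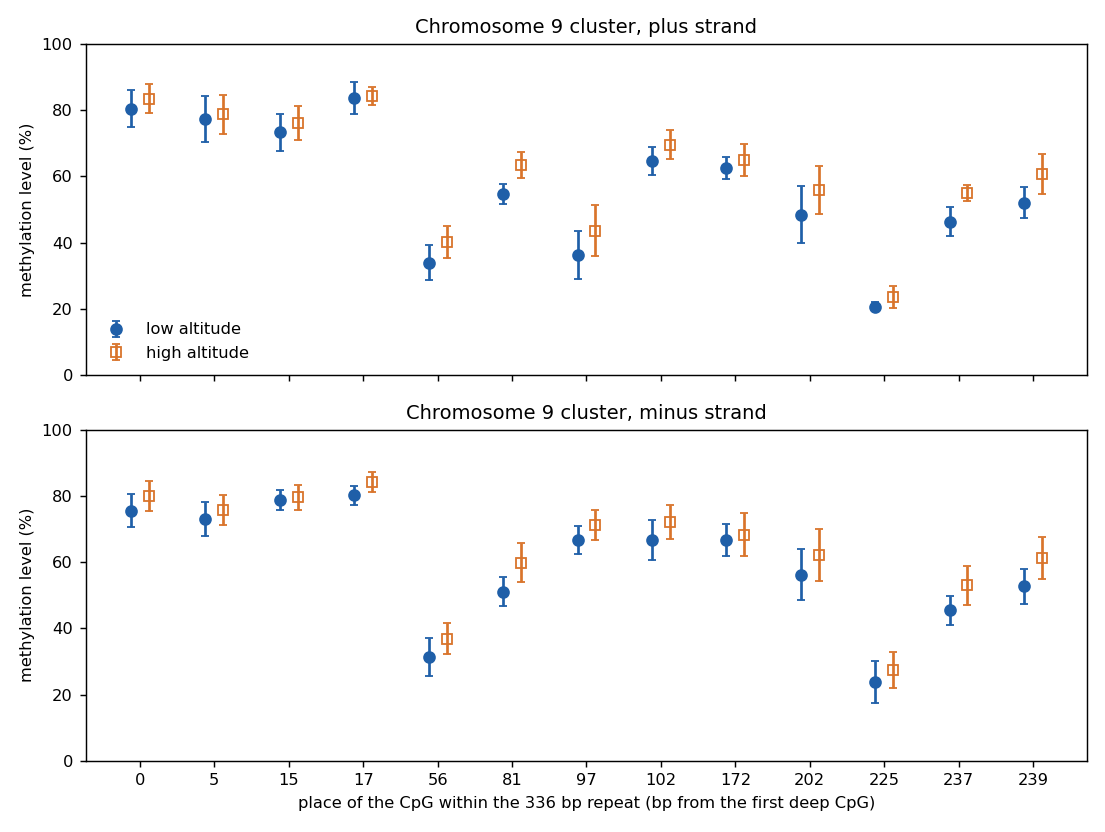
Mean methylation level in percent at 13 places within the 336 bp unit of the chromosome 9 array, on the plus strand (top) and minus strand (bottom), low altitude filled circles and high altitude open squares, with bars showing the SD over 5 to 12 copies. Levels run between about 20% at 225 bp and about 84% at 17 bp in both pigs, and every low-altitude mean lies below its high-altitude partner.

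Chromosome 6 held 1014 deep cytosines in 6 clusters, and 5 of these, with 675 deep cytosines, lay in its first megabase. The cluster at 857841 to 875914 had 534 deep cytosines at a median of 446.5 reads at low altitude and 329 at high altitude, with a relative read ratio of 1.44. Its level was 52.5% (52.3 to 52.7%) at low altitude and 44.05% (43.8 to 44.3%) at high altitude, the largest positive difference of any cluster, and 445 of 534 cytosines were higher. By Fisher's exact test at an adjusted p below 0.05, 165 were higher and 10 lower. The backgrounds were 0.108% higher and 0.126% lower over all tested cytosines, and such counts move with depth. This cluster held 165 of the 195 deep cytosines that were higher by that test. This cluster showed no strong period, because its most frequent distance, 50 bp, had 216 pairs against a median of 138, and the next, 151 bp, had 188. Its 3 most frequent distances all lay near multiples of 50 bp, and whether they mark a weak period was not tested.

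The higher level at low altitude lay in the longer stretch of this cluster, as the plot along it shows. In its first 4.5 kb (857841 to 862340) 116 deep cytosines averaged 55.4% ± 20.4 at low altitude and 58.4% ± 22.0 at high altitude, and 86 were lower. In the rest (862341 to 875914) 418 deep cytosines averaged 51.0% ± 12.3 at low altitude and 38.5% ± 11.0 at high altitude. The difference there was 12.5 points ± 4.37, and 415 of 418 were higher. Fisher's exact test at an adjusted p below 0.05 called 161 higher and none lower, against backgrounds of 0.108% and 0.126% of all tested cytosines. The 1952 other cytosines listed in that stretch, at medians of 93 reads at low altitude and 47 at high altitude, averaged 49.6% and 38.1%, and 1701 of them were higher. In the first 4.5 kb the 70 other cytosines, at medians of 88 and 60 reads, averaged 41.5% at low altitude and 39.3% at high altitude, and 42 of 70 were higher, opposite to the deep ones there. Depth moved with the difference. The relative read ratio was 1.48 in this stretch and 1.32 in the first 4.5 kb, and its part in the difference was not tested. The stretch was also densely listed, with 175 cytosines per kb against 41.3 per kb in the first 4.5 kb. The boundary at 4.5 kb was set after the values were seen.

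**Figure D5:**
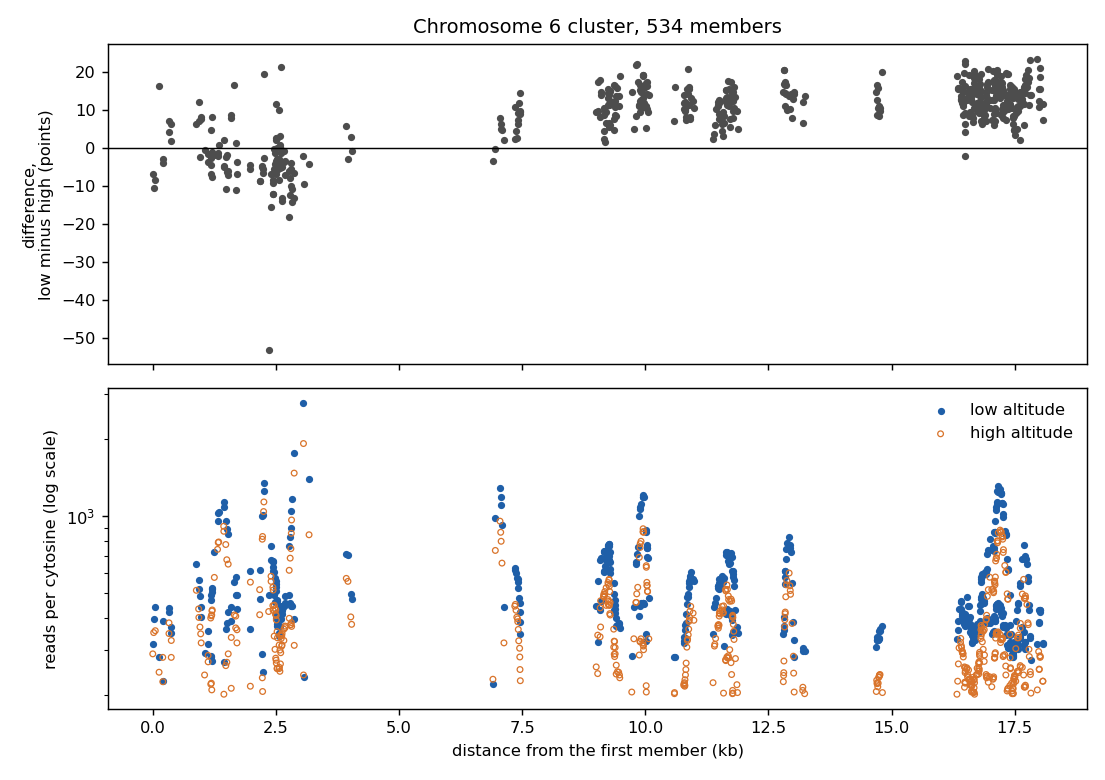
Difference in level in points, low minus high (top), and reads per cytosine on a log scale (bottom, low altitude filled, high altitude open) for the 534 deep cytosines of the largest chromosome 6 cluster, by distance from the first of them in kb. Up to 4.5 kb the differences scatter around and below 0, and beyond it 415 of 418 lie above 0.

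The other clusters of the first megabase of chromosome 6 were mixed. Together they held 141 deep cytosines, with a mean difference of 1.19 points per cytosine, and 70 of 141 were lower. The cluster at 905676 to 910741 (65 deep cytosines) had 64.1% at low altitude and 65.7% at high altitude. The cluster at 160005 to 172007 (42) had 48.0% and 47.0%, with 21 cytosines lower and 21 higher. The cluster at 949804 to 954405 (23, all on the minus strand) had 40.8% at low altitude and 35.0% at high altitude, the second largest positive difference, at medians of 911 and 672 reads. The 62 other cytosines listed in that span, at medians of 43 and 25 reads, had 58.0% at low altitude and 59.2% at high altitude. Their difference, −1.16 points, was opposite to that of the deep ones. By Fisher's exact test at an adjusted p below 0.05, 10 of the 23 deep cytosines were higher and none lower. The backgrounds were 0.108% higher and 0.126% lower over all tested cytosines, and such counts move with depth.

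Outside chromosome 6, the largest positive difference among clusters with at least 10 deep cytosines was in one of 426 bp on chromosome 8 (77334232 to 77334657). Its 30 deep cytosines, at medians of 384 reads at low altitude and 269.5 at high altitude, had 63.7% (62.8 to 64.6%) at low altitude and 57.9% (56.8 to 59.0%) at high altitude. Of the 30, 27 were higher, though none passed Fisher's exact test at an adjusted p below 0.05. This cluster also had more reads at low altitude, with a relative read ratio of 1.43. Among the negative differences, the cluster on chromosome 12 at 53589035 to 53589320 (11 deep cytosines) had 56.9% at low altitude and 61.2% at high altitude, with 10 of 11 lower and a relative read ratio of 0.594.

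Chromosome 16 had 271 deep cytosines in 5 clusters, with 39.97% at low altitude and 43.5% at high altitude, and 217 were lower. Apart from the deepest cluster, those at 54880325 to 54883989 (29 deep cytosines), 54726428 to 54726535 (10) and 42814399 to 42814470 (6) had 84.0%, 66.9% and 24.0% at low altitude and 85.6%, 71.0% and 26.0% at high altitude. Every one of these 3 was lower at low altitude, although their levels lay far apart, and the fifth cluster was a single cytosine. Summed over reads without the deepest cluster, the chromosome 16 difference was 3.39 points, although each of the 4 remaining clusters had a negative difference. Deep cytosines took 22.2% of the reads of shared cytosines on chromosome 16 at low altitude and 27.7% at high altitude. Over all shared reads of the chromosome the difference was −0.034 points, and −1.04 points without the deep cytosines.

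Chromosome 18 had 119 deep cytosines in 5 clusters, and all lay within 2 Mb of the chromosome's start. Their level was 27.8% (27.4 to 28.2%) at low altitude and 30.05% (29.7 to 30.4%) at high altitude. Of the 119, 86 were lower, and none passed Fisher's exact test at an adjusted p below 0.05. The clusters at 242528 to 302215 (49 deep cytosines), 315946 to 323904 (21), 336907 to 357293 (18) and 377972 to 394981 (28) had 21.9%, 33.7%, 30.6% and 28.5% at low altitude and 23.5%, 36.8%, 33.3% and 31.8% at high altitude. All 4 were lower at low altitude, with differences of −1.53 to −3.29 points. They had fewer reads at low altitude, with relative read ratios of 0.615, 0.738, 0.724 and 0.662. The fifth, named after its value was seen, held 3 deep cytosines and had the most negative difference of all 69 clusters, −9.98 points. Deep cytosines took 2.11% of the chromosome's shared reads at low altitude and 3.05% at high altitude, and leaving them out moved the difference over all its reads to 0.396 points, against 0.742 with them.

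The deep cytosines of the other chromosomes are given by their sums. Chromosome 3 had 395 deep cytosines with a difference of −1.76 points over reads, chromosome 9 had 248 with −4.53, and chromosome 12 had 181 with −4.40. Chromosome 1 had 170 in 10 clusters with 0.41 points over reads, although 102 of 170 were lower. Its clusters, named after their values were seen, at 312909285 to 312941139 (40 deep cytosines) and 313086511 to 313102016 (33) had 27.6% and 27.5% at low altitude and 28.8% and 29.6% at high altitude. Chromosome 17 had 58, with a difference of 0.82 points over reads but −0.93 points over cytosines, and 36 of 58 were lower. Chromosome 10 had 40 with −2.93 points over reads. Chromosome 15 had 52 in 14 clusters, at a relative read ratio of 0.645, with a difference of −0.15 points. Chromosomes 11, 7, 2 and 14 had 12, 5, 4 and 1. The 5 on the unplaced scaffold had 77.9% at low altitude and 82.3% at high altitude. Chromosome 4 had 47, and its difference was 6.81 points over reads but −1.33 points over cytosines. Of its 2 clusters, 1 was almost unmethylated and the other at 63.2% at low altitude and 64.6% at high altitude, at relative read ratios of 0.714 and 1.22.

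Deep cytosines were frequent near chromosome ends. Of 2647 on numbered autosomes, 908 (34.3%) lay within 2 Mb of the first or last listed position, against 2.83% of all shared cytosines and 29.1% of those with 61 to 200 reads. They lay in 25 clusters on 7 chromosomes, most on chromosome 6 (675), chromosome 18 (119), chromosome 17 (55) and chromosome 1 (43). Those 25 clusters differed by −1.95 points ± 4.07, and the 43 farther from an end by −1.88 points ± 2.98 (SD over clusters, each counted once).

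Relative read ratios of the 69 clusters ran between 0.575 and 1.98 with a median of 0.875, so many clusters held a larger share of reads in the high-altitude library. Among the 32 clusters with at least 10 deep cytosines, those under 0.8 had a median difference of −2.74 points (8 of 11 lower), those between 0.8 and 1.25 had −2.55 points (10 of 12 lower), and those over 1.25 had −1.23 points (5 of 9 lower). The 3 clusters with the largest positive differences were in that last group. Across the 32 clusters, the log of the ratio and the difference had a Pearson correlation of 0.373. These points share 2 libraries and differ in depth, and the part of the read ratio in the differences was not tested.

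Both strands of a CpG gave a check within each library. In 583 CpGs both strands were deep, and in those the strands differed by a median of 3.73 points at low altitude and 3.58 at high altitude. Between the pigs the median difference was 5.40 points on the plus strand and 5.09 on the minus strand. The largest chromosome 6 cluster, with 170 of these CpGs, had 11.4 and 11.7 points between pigs against 2.87 and 3.15 between strands. In the chromosome 3 cluster of 358 the strands differed more, by 5.85 and 6.48 points against 3.98 and 2.33 between pigs. The chromosome 9 array had 4.63 and 4.46 between pigs against 5.19 and 3.90, and the chromosome 16 cluster 3.98 and 3.84 against 3.65 and 2.69. The difference between pigs had the same sign on both strands in 479 of 583 CpGs (82.2%). In the largest chromosome 6 cluster this held for 163 of 170 CpGs, of which 130 were higher and 33 lower on both strands. In the chromosome 16 cluster it held for 79 of 96, with 73 lower on both strands, and in the chromosome 9 array for 69 of 81, with 68 lower on both. Strands of a CpG share the DNA, the repeat and the library.

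Depth itself was uneven between strands. In 1486 of the 2069 CpGs a single strand was deep, with medians of 344.5 reads at low altitude and 355 at high altitude on that strand, and 112 and 104.5 on the other where it was listed. In 36 of 69 clusters all deep cytosines lay on 1 strand. A cluster on chromosome 4, singled out after its values were seen (96930484 to 96935515, 30 deep cytosines, all minus) had medians of 184 reads at low altitude and 156.5 at high altitude over its listed minus-strand cytosines, against 31 and 26.5 over plus-strand ones. The chromosome 6 cluster at 949804 had 394.5 and 292 reads on the minus strand and 37.5 and 24.5 on the plus strand.

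Clusters with almost no methylation formed a small group, named here after their values were seen. On chromosome 15 (140261863 to 140262413) 17 deep cytosines had 1.82% (1.55 to 2.13%) at low altitude and 0.783% (0.647 to 0.945%) at high altitude, and all 17 were higher at low altitude. On chromosome 4 (59238804 to 59239580) 17 had 0.746% (0.630 to 0.883%) and 0.546% (0.463 to 0.644%). On chromosome 2, 4 deep cytosines had 2.48% and 2.20%. No cytosine of these 3 clusters passed Fisher's exact test at an adjusted p below 0.05. Levels this close to 0 were not corrected for non-conversion, and positions without methylated calls are not listed. The part of either in these levels and differences was not tested. Their relative read ratios were 0.612, 0.714 and 0.643, and the 43 shared mitochondrial cytosines, which are not among the deep cytosines, had 1.42% methylated reads at low altitude and 0.259% at high altitude at a ratio of 0.629. Such ratios were not particular to clusters of low level, since the chromosome 18 clusters above had 0.615 to 0.738. Whether the almost unmethylated clusters and the mitochondrial genome are related was not tested.

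The 5 called cytosines that differed by at least 25 points did so far more than their neighbours. The call picked them for a large difference, so a smaller one at neighbours or on the other strand is no finding by itself. At 69674837 of chromosome 17 (plus strand) 67.9% of 302 reads were methylated at low altitude and 17.6% of 239 at high altitude (Fisher's exact test, adjusted p = 3.32e-27), whereas 12 other listed cytosines within 100 bp averaged 49.1% and 48.3%. At 69494568 and 69494475 of the same chromosome (both plus) the levels were 54.4% and 50.3% at low altitude and 25.5% and 21.9% at high altitude (Fisher's exact test, adjusted p = 3.91e-07 and 1.01e-12). Their neighbours differed by 4.40 and 1.52 points. The largest fall was at 860194 of chromosome 6 (minus), with 13.6% of 491 reads at low altitude and 66.7% of 423 at high altitude (Fisher's exact test, adjusted p = 2.76e-57), where 8 neighbours differed by −8.71 points. The other, at 143359546 of chromosome 6 (minus), had 24.6% of 272 reads and 55.9% of 494 (Fisher's exact test, adjusted p = 2.58e-12), and its 10 neighbours differed by −12.2 points. At the 3 CpGs whose other strand was listed in both libraries, that strand differed by 5.64, 8.22 and −12.0 points, in the same direction but by less.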

How the data were processed

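Per the file headers, the deposited files give the authors' counts of methylated and unmethylated reads per cytosine, a level as a fraction and p-values, raw and corrected. No listed cytosine had fewer than 5 reads or 0 methylated reads. The submitters' processing notes name Bismark 0.12.5. Genome build, read filters and duplicate treatment: not given in the sources used here. Per the labels' protocols, DNA was sheared, converted with bisulfite and amplified by PCR.

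Levels were computed from the counts without correction for non-conversion, with Python 3.11.15, numpy 2.4.6, pandas 2.3.3 and numba 0.67.0. Fisher's exact test (two-sided) was run where both libraries had 10 or more reads. The median depth of 8 reads limits that test elsewhere, and over 200 reads were available at each deep cytosine. The test was checked on simulated reads.

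The deep cytosines and all lists were chosen with earlier results of these data known. Named clusters are the 10 with the most deep cytosines, all with at least 5 on chromosomes 16 and 18, and the 3 largest differences of either sign among those with at least 10; named cytosines are the 3 deepest, 3 on either side of the read minimum, and the largest called differences. Any other cluster was named after its values were seen. Positions ran past the last gene of Sscrofa11.1 on 17 of 18 autosomes, by up to 41.0 Mb, so no gene was assigned. Alternatives covered the read minimum, the cluster gap, strands, the deposited level and the call.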

Additional observations from a re-analysis of the deposited data

How the results depend on the processing

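Of 32 alternative values, 10 stayed within counting error or 1.5 times, 17 moved and 5 changed sign. The mean difference per cytosine, −0.066 points, was −0.19 at over 100 reads, −1.08 at over 500 reads, 0.22 without the chromosome 16 cluster that holds the most reads, and 0.23 with both strands of a CpG summed. The difference over reads, −0.28 points, was 0.15 at over 100 reads, −1.87 at over 500, 2.27 without the cluster with the most reads and −1.23 with strands summed. The sign of either mean is therefore no finding. On chromosome 16 the difference of −3.53 points was −3.92 at over 500 reads and 3.39 without its deepest cluster, a sum over clusters of unlike level and depth, of which each was lower at low altitude. On chromosome 18 −2.24 points became −3.18 without its cluster with the most reads. The 69 clusters became 155 at over 100 reads, 40 at over 500 reads, 244 with gaps of at most 1 kb and 42 with gaps of at most 100 kb. The 5 called cytosines became 45 at over 100 reads, 236 at a minimum of 10 points and 342 with none. At over 500 reads Fisher's exact test called 0 of 713, with none past 25 points at an unadjusted p below 0.05 either, 382 at an unadjusted p below 0.05 and 187 at an adjusted one with no minimum. Chosen after seeing the data, leaving out the chromosome 6 cluster with the most members gave −2.38 points per cytosine and −2.02 over reads, and counting each cluster once gave −1.94. No paired analysis was possible because each altitude has 1 library, and for the same reason no replicate could be left out.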
